A study of Mus musculus with 8 samples.

Results

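The lecticans, their link proteins and the tenascins build the hyaluronan-based matrix of the brain, including the perineuronal nets that coat some neurons. The members described here are 10 genes: the lecticans Ncan, Bcan, Vcan and Acan, the link proteins Hapln1, Hapln2 and Hapln4, the tenascins Tnr and Tnc, and Cspg5, a transmembrane chondroitin sulfate proteoglycan. They were chosen by platform gene symbol, which found 18 probes of the 25697 on the array, and 0 more through older symbols. Total RNA came from the hypothalamus and the liver of male Fmod knockout mice on a C57BL/6 background at 13 weeks of age, with 4 single-colour Illumina bead arrays for each organ. All 8 arrays carry the knockout of Fmod, the gene of the collagen-binding proteoglycan fibromodulin, so the comparison is between organs and not between genotypes. Wild-type arrays were not analysed here, the making of the allele is described in none of the sources used here, and nothing in the labels ties equal replicate numbers to the same mouse. The labels do not state how the arrays of an organ differ in origin, so the p-values rest on a spread among arrays that may be technical.

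In this matrix, lecticans bind long chains of hyaluronan through their amino-terminal domain, link proteins hold that bond in place, and tenascins join the other ends of the lecticans into a net. Neurocan (Ncan) and brevican (Bcan) are the lecticans best known from brain, versican (Vcan) is found in many tissues, and aggrecan (Acan) is known from cartilage and from perineuronal nets. Hapln1 was first known from cartilage, Hapln2 from the nodes of myelinated axons and Hapln4 from perineuronal nets and synapses.

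Each lectican gene lies beside a link protein gene in the RefSeq table of GRCm38.p6, with 0 protein-coding genes between Bcan and Hapln2, between Ncan and Hapln4, between Vcan and Hapln1, and between Acan and Hapln3. Bcan, Hapln2, Ncan and Hapln4 each had a probe called higher in hypothalamus, a call made for 41.8% of all tested probes. The called probes of Bcan, Hapln2 and Ncan were detected on 4 hypothalamus and 0 liver arrays. Of tested probes with that pattern, 94.4% were called the same way. The Hapln4 probe was detected on all 8 arrays, and 32.9% of such probes were called higher in hypothalamus. Vcan, Hapln1, Acan and Hapln3 had no probe that passed the detection filter, like 47.5% of all probes on the array. The contrast between these pairs rests on which probes passed the filter, and cannot be read as a result about neighbouring genes. The promoter windows of the members called higher in hypothalamus that the RefSeq table holds with a single start are shown as a description. Each runs from 250 bases before the start to 50 bases after it on GRCm38.p6, at chr8:70120795-70121094 for Ncan, chr3:88000307-88000606 for Bcan and chr3:88027462-88027761 for Hapln2, all on the minus strand and written 5′ to 3′ along the gene. Capitals mark matches to a GC box (GGGCGG), a SOX core (AACAAT), the E-box CAGCTG and a TATA box (TATAAA), on either strand.
Ncan: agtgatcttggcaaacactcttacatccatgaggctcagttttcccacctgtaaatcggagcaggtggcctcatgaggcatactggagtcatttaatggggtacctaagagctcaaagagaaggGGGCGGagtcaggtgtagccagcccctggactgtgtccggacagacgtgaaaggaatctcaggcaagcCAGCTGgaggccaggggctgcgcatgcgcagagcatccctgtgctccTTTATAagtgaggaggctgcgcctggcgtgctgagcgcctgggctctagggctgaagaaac
Bcan: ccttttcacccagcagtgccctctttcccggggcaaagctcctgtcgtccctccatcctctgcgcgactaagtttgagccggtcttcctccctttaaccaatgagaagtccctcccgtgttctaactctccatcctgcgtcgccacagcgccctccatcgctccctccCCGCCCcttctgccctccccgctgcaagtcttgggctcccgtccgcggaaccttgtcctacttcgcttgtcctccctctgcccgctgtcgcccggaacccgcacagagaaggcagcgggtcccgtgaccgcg
Hapln2: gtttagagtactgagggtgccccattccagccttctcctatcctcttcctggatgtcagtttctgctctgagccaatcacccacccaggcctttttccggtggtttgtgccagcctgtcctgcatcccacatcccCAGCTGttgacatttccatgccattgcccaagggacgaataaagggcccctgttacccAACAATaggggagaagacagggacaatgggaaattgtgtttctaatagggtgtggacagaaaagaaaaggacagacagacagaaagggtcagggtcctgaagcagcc
The Ncan window held 1 GC box, 1 E-box and, on the opposite strand, 1 TATA match beginning at base 240 of the window. The Bcan window held 1 GC box and none of the other letters, and had the most CpG dinucleotides of these windows, 24 against 9 in Ncan and 2 in Hapln2. The Hapln2 window held 1 E-box and 1 SOX core, and the SOX core was in no other of the 9 windows of the 8 members matched. Over all 32851 windows of the table, 35.7% held a GC box, 16.3% the E-box, 13.6% a TATA match and 10.7% a SOX core, and the median window had 7 CpG. None of these letters was present in the windows of Tnr and Hapln1.

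Hypothalamus arrays detected 13461 ± 204 probes and liver arrays 10587 ± 238 (SD, n = 4 each; detection p-value under 0.05). Arrays of 1 organ correlated at 0.976 to 0.993 over the 13498 probes detected on at least 4 of the 8 arrays, which were the ones tested, and arrays of different organs at no more than 0.455. Fmod had 2 probes, of which 1 was detected on 1 hypothalamus array and the other on 0 of 8, so they do not check the genotype. Their place relative to the deleted stretch is unknown here. All 6 hypothalamic markers tested, among them Pmch and Oxt, were higher in hypothalamus, and all 5 hepatocyte markers were higher in liver. On the normalized scale, hypothalamus replicate 3 was highest in markers of the choroid plexus and of myelin. Its normalized log2 level of Ttr, a transport protein made by choroid plexus, was 14.32, against 5.42, 7.88 and 7.79 in replicates 1, 2 and 4. All 3 choroid plexus markers and all 4 oligodendrocyte markers detected on every hypothalamus array had their highest normalized level in it. Of 11941 such probes, 24.8% did. In deposited signal this array, which was dim, was highest for only Ttr, Kl and Mog of these markers. Mbp was lowest in it at 20139, Cldn11 and Mag were highest in replicate 2 and Clic6 in replicate 4. The oligodendrocyte markers together summed to deposited signals of 41806.5 to 44784.2 across the hypothalamus arrays. Those of the choroid plexus summed to 2389 to 18529 there, against 22519.8 to 29341 across the liver arrays, where Ttr is a hepatocyte gene. Values without replicate 3 are given for the tested members in which it was the highest or lowest hypothalamus array on the normalized scale.

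Of the 18 member probes, 7 passed the detection filter, and they read 6 genes: Ncan, Bcan (by 2 probes), Hapln2, Hapln4, Tnc and Cspg5. Each of the 7 was called higher in hypothalamus by limma with Benjamini-Hochberg adjustment at 0.05, and on each the lowest hypothalamus array lay above the highest liver array. Among all 13498 tested probes, 79.6% were called in one direction or the other, 41.8% with the hypothalamus higher and 37.8% with the liver higher, and 39.5% did not overlap in this way. The count of 7 cannot be read as support, because 5 of the probes entered the test only through the hypothalamus, having been detected on all 4 of its arrays and on 0 liver arrays, and 94.4% of the 2337 tested probes with that pattern were called the same way. The other 2, for Cspg5 and Hapln4, were detected on all 8 arrays, where 32.9% of 7992 probes were called higher in hypothalamus. The median log2 difference of the 6 genes was 3.40, beside 0.11 over all 9456 tested genes. It was 2.54 with Ncan, Bcan and Hapln2 set to their bound and Tnc, which has no bound, kept at 0.64. The gap to all tested genes cannot be read as a result, since 4 of the 6 genes passed the filter through the hypothalamus alone. With no filter, the median over all 10 members was 0.81. Fewer cells of a type and less RNA per cell cannot be told apart in such bulk samples.

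**Figure D1:**
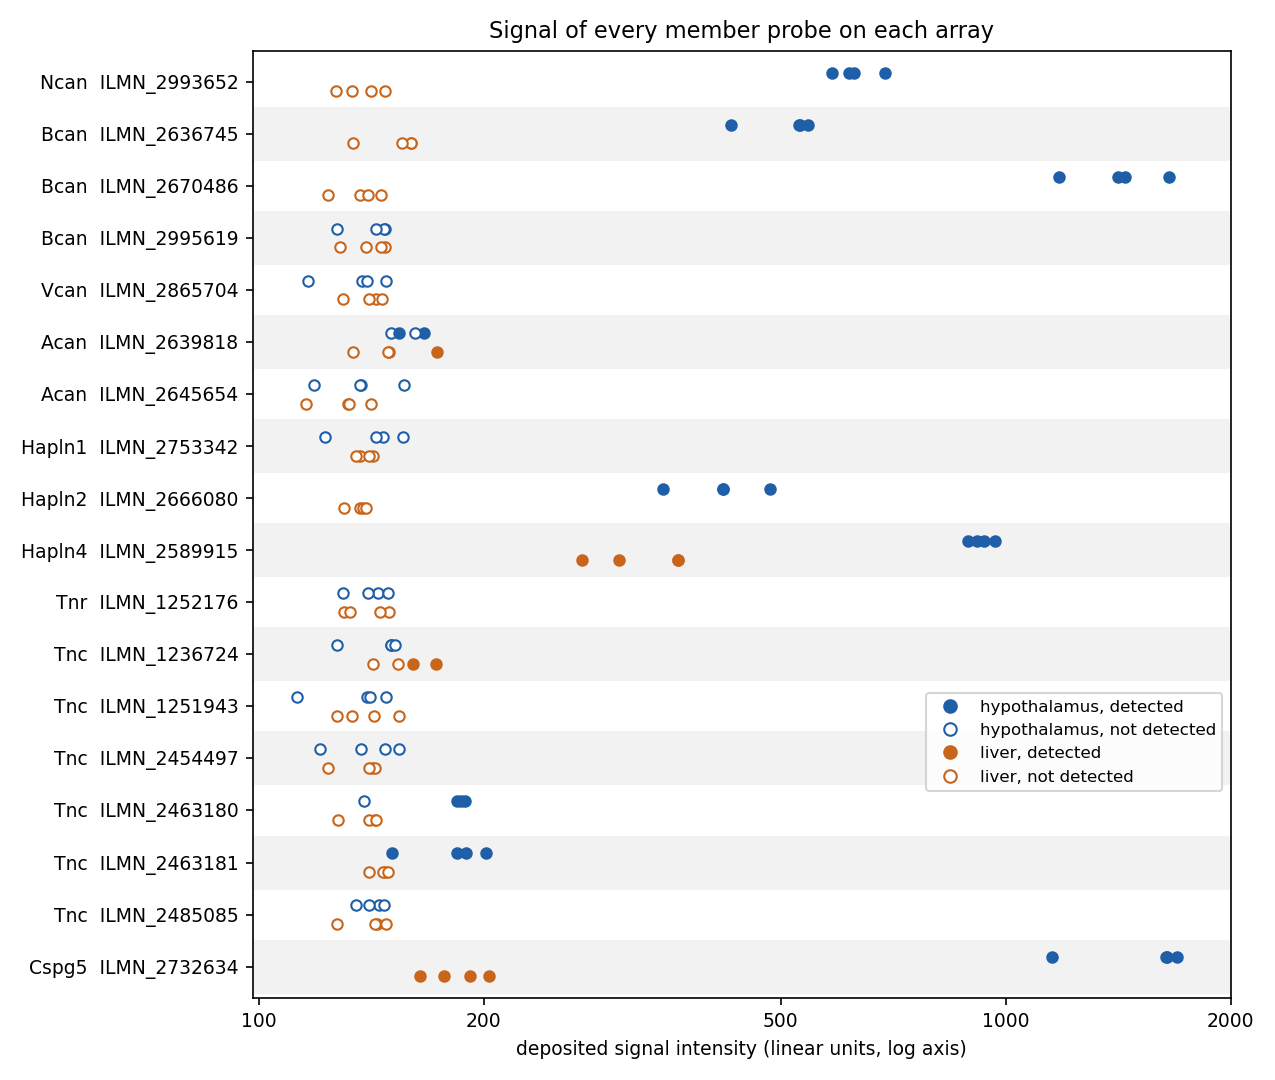
Deposited signal intensity (linear units on a log axis) of each of the 18 member probes, with 1 point for each of the 4 hypothalamus arrays (blue, upper) and the 4 liver arrays (orange, lower); filled points were detected at a p-value under 0.05. Probes of Ncan, Bcan (other than ILMN_2995619), Hapln2, Hapln4 and Cspg5 lie at 347 to 1693 in hypothalamus, and 8 probes were detected on 0 arrays.

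Bcan is the gene of the brain-specific lectican brevican. Its probe ILMN_2670486 had deposited signals of 1653, 1413, 1178 and 1443 in hypothalamus replicates 1 to 4, against 124, 137, 140.0 and 146 in liver. The liver values were those of undetected probes, with detection p-values of 0.52 or more, and all hypothalamus values were far above them. The normalized log2 level averaged 10.01 ± 0.09 in hypothalamus, against 4.45 ± 0.05 in liver (SD, n = 4 each), a difference of 5.56 (SE 0.10, adjusted p = 1.10e-11 by limma). Because no liver array detected the probe, the fold has only a bound: at least 21.5-fold higher in hypothalamus, counted in each liver array from the higher of the probe's own value and the lowest value of any detected probe.

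The other Bcan probes read differently. ILMN_2636745 had deposited signals of 530.4, 528, 429 and 544 in hypothalamus, against 134, 159.8, 159.9 and 155 in liver, again with 0 liver arrays detecting it. Its log2 difference was 2.99 (SE 0.19, adjusted p = 1.86e-07), at least 5.81-fold. The remaining probe, ILMN_2995619, gave 127 to 148 in hypothalamus and 128 to 148 in liver and was detected on none of the 8 arrays. For that probe the difference was −0.01 with a 95% interval of −0.17 to 0.16 in a fit to all probes. All 3 are annotated to the same RefSeq transcript, and their positions within it are unknown here, so the level of Bcan depends on the probe taken.

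Ncan, the neurocan gene, was read by 1 probe, ILMN_2993652. Its deposited signals were 618, 689, 585 and 626 in hypothalamus, against 127, 142, 148 and 133 in liver. The groups did not overlap, and 0 liver arrays detected the probe. The normalized log2 level averaged 8.55 ± 0.21 in hypothalamus, against 4.49 ± 0.12 in liver (SD, n = 4 each), a difference of 4.07 (SE 0.13, adjusted p = 8.24e-10), at least 7.83-fold. In hypothalamus replicate 3 the normalized level of Ncan was highest, at 8.77, while its deposited signal was lowest, at 585. Without that array the difference was 4.00.

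The other lecticans, versican and aggrecan, gave no readable difference. The Vcan probe had deposited signals of 117 to 148 in hypothalamus and 130 to 146 in liver and was detected on 0 of 8 arrays, with a log2 difference of −0.12 (95% interval −0.30 to 0.07). Of 2 Acan probes, ILMN_2645654 was detected on 0 arrays. ILMN_2639818 had deposited signals of 150.5, 167, 154 and 162 in hypothalamus, against 134, 149.6, 149 and 173 in liver, and was detected on hypothalamus replicates 2 and 3 and on liver replicate 4. The groups overlapped, the log2 difference was −0.15, and its 95% interval of −0.88 to 0.58 is wide. Probes of such genes at background do not show that the genes were silent: the single probe of Snap25, an abundant neuronal gene, was also detected on 0 of 8 arrays in these data.

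Among the link proteins, Hapln4 had signal in both organs. Its deposited signals were 966, 916, 891 and 934 in hypothalamus, against 303, 271, 364 and 364 in liver, and all 8 arrays detected it. The normalized log2 level averaged 9.27 ± 0.18 in hypothalamus, against 8.28 ± 0.26 in liver (SD, n = 4 each), a difference of 0.98 (SE 0.15, adjusted p = 1.88e-04) or 1.98-fold. Whether Hapln4 differed by more than 2-fold depended on the scaling. The adjusted p against 2-fold (limma treat) was 0.994 with quantile normalization and 0.666 with cyclic loess, but 0.00315 with median scaling (log2 difference 1.62) and 0.0231 in the authors' own normalized values (1.30). Under those 2 scalings the log2 difference of the median tested probe was 0.49 and 0.39, beside 0.07 with quantile normalization, and 65.6% and 71.4% of all called probes were higher in hypothalamus, beside 52.5%.

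Hapln4 was also the member in which hypothalamus replicate 3 differed most plainly. That array had the lowest deposited Hapln4 signal of the hypothalamus arrays, 891, and the highest normalized one, 9.53 against 9.16 to 9.21 in the others. The array as a whole was dim, with a median deposited signal of 142 against 165 to 169. Pvalb, the calcium-binding protein of many neurons that carry perineuronal nets, was highest on the same array, at 12.12 against 11.16 to 11.31, while Kcnc1, a potassium channel of such neurons, was not, at 9.94 against 9.78 to 9.97. The part of cell makeup in these values was not tested. Without replicate 3 the Hapln4 difference was 0.90 (adjusted p = 7.19e-04).

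Hapln2, the link protein of nodes along myelinated axons, was detected on all 4 hypothalamus arrays and on 0 liver arrays. Its deposited signals were 483, 418, 418 and 347 in hypothalamus, against 130.0, 137, 138 and 139 in liver. The normalized log2 level averaged 7.70 ± 0.39 in hypothalamus, against 4.45 ± 0.08 in liver (SD, n = 4 each), a difference of 3.25 (SE 0.18, adjusted p = 6.63e-08), at least 4.33-fold. Its SD between hypothalamus arrays was at the 93.9th percentile of all tested probes, the highest of the 7 tested member probes, whereas that of Bcan ILMN_2670486 was at the 15.8th. On the normalized scale replicate 3 was highest at 8.10 and replicate 4 lowest at 7.17, while the highest deposited signal was that of replicate 1. The myelin genes Mog (10.32), Mbp, Cldn11 and Mag were also highest in replicate 3 on the normalized scale. Mog (9.48) and Cldn11 (13.85) were lowest in replicate 4, but Mbp was lowest in replicate 2 (14.44) and Mag in replicate 1 (12.21). Without replicate 3 the Hapln2 difference was 3.12. The Hapln1 probe was detected on 0 of 8 arrays, with deposited signals of 123 to 156 in hypothalamus and 135 to 142 in liver and a log2 difference of −0.01 (95% interval −0.30 to 0.28).

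**Figure D2:**
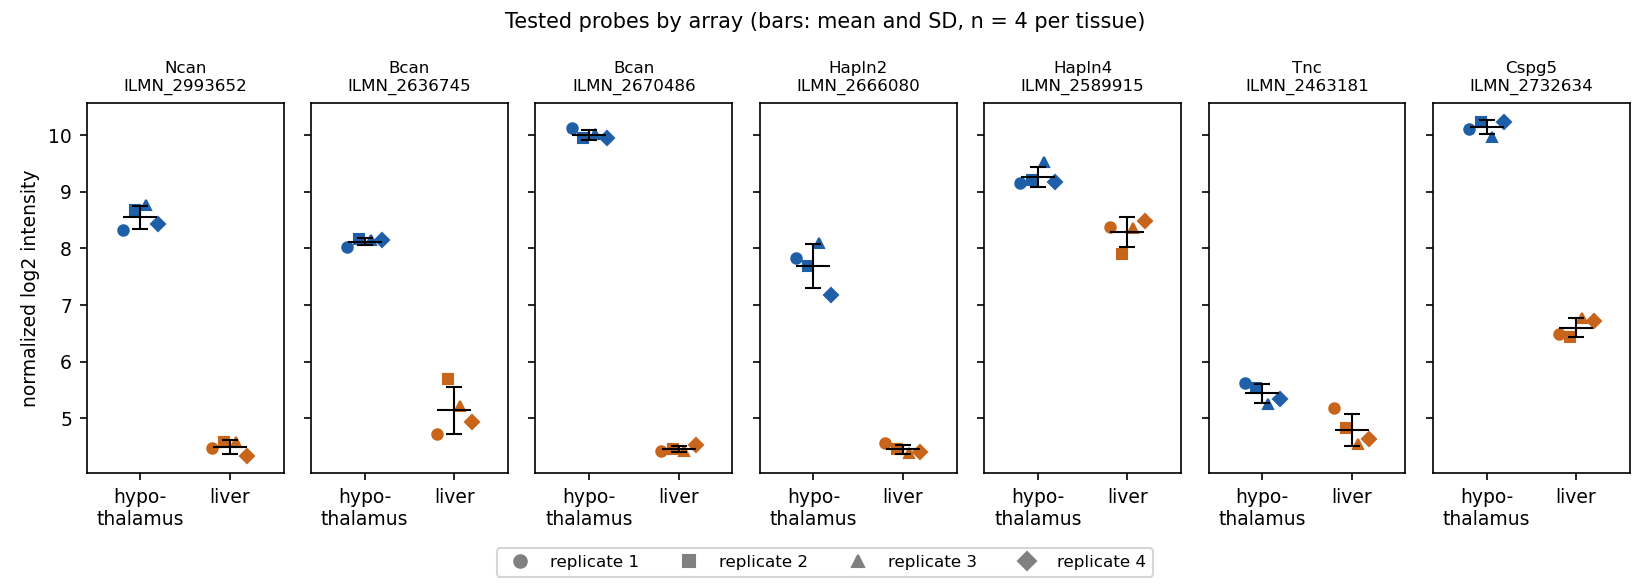
Normalized log2 intensity of the 7 member probes that passed the detection filter, with 1 symbol per replicate, hypothalamus left and liver right, and the mean and SD over the 4 arrays of each organ. The organs do not overlap on any of the 7, Hapln4 lies between 7.90 and 9.53 on all 8 arrays, and hypothalamus replicate 3 (triangle) is highest for Ncan, Hapln2 and Hapln4.

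Tenascin-C (Tnc), a hexameric glycoprotein with many splice forms, was read by 6 probes, which did not read alike. ILMN_2463181 passed the filter, with deposited signals of 201, 189, 151 and 184 in hypothalamus, against 141, 147, 147 and 149 in liver. The hypothalamus arrays lay above the liver arrays by little, and its log2 difference was 0.64 (SE 0.16, adjusted p = 0.00379). No fold is given, because the hypothalamus mean was not above the detection bound of the liver arrays. ILMN_2463180 was detected on 3 hypothalamus arrays and 0 liver arrays and so was not among the probes tested. In a fit to all probes its difference was 0.77 (95% interval 0.45 to 1.08). It gave 185, 186, 138 and 189 in hypothalamus, against 128, 143, 141 and 144 in liver, and hypothalamus replicate 3, the dim array, was the one below detection. Without that array the difference was 0.90 for ILMN_2463180 and 0.70 for ILMN_2463181.

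A further Tnc probe went the other way. ILMN_1236724 had deposited signals of 151, 150.3, 127 and 152 in hypothalamus, against 142, 161, 154 and 173 in liver, and was detected on 0 hypothalamus arrays and on liver replicates 2 and 4. The deposited values overlap between the organs and the normalized ones do not: its log2 difference in the fit to all probes was −0.91 (95% interval −1.44 to −0.38), but −0.04 in the authors' own normalized values. The other 3 Tnc probes were detected on 0 of 8 arrays, with log2 differences between −0.13 and 0.03. Tenascin-R (Tnr), which oligodendrocytes and some neurons make and which binds the lecticans, had 1 probe, detected on 0 of 8 arrays. It gave 130 to 149 in hypothalamus (129.8 in replicate 3) and 130.1 to 149.6 in liver, with a log2 difference of −0.01 (95% interval −0.21 to 0.18).

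Cspg5, a membrane proteoglycan of neurons with an EGF-like domain, had, like Hapln4, a fold measured on both sides, its probe being detected on all 8 arrays. Its deposited signals were 1638, 1644, 1151 and 1693 in hypothalamus, against 164, 177, 204 and 192 in liver. The normalized log2 level averaged 10.14 ± 0.12 in hypothalamus, against 6.60 ± 0.17 in liver (SD, n = 4 each). The difference of 3.54 (SE 0.12, adjusted p = 1.40e-09) is 11.6-fold. The normalized level was lowest in hypothalamus replicate 3, at 9.98, where those of Ncan, Hapln2 and Hapln4 were highest. The deposited signals of Cspg5, Ncan and Hapln4 were all lowest on that array. Without it the Cspg5 difference was 3.60.

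The size of each difference followed the treatment of the background. With quantile normalization but no background correction, the log2 difference was 3.04 for Bcan ILMN_2670486, 2.48 for Cspg5, 1.81 for Ncan and 1.25 for Hapln2, and Hapln2 no longer passed the 2-fold test (adjusted p = 0.0639). Tnc ILMN_2463181 was at 0.17 (adjusted p = 0.0306) and at 0.39 with cyclic loess (adjusted p = 0.0247). With the correction, 5 of the 7 probes differed by more than 2-fold. In this direction 22.1% of all tested probes did so, and 61.1% of the probes detected on 4 hypothalamus and 0 liver arrays, the pattern of 4 of these 5. The bounds given for single probes hold for the reported normalization only.

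**Figure D3:**
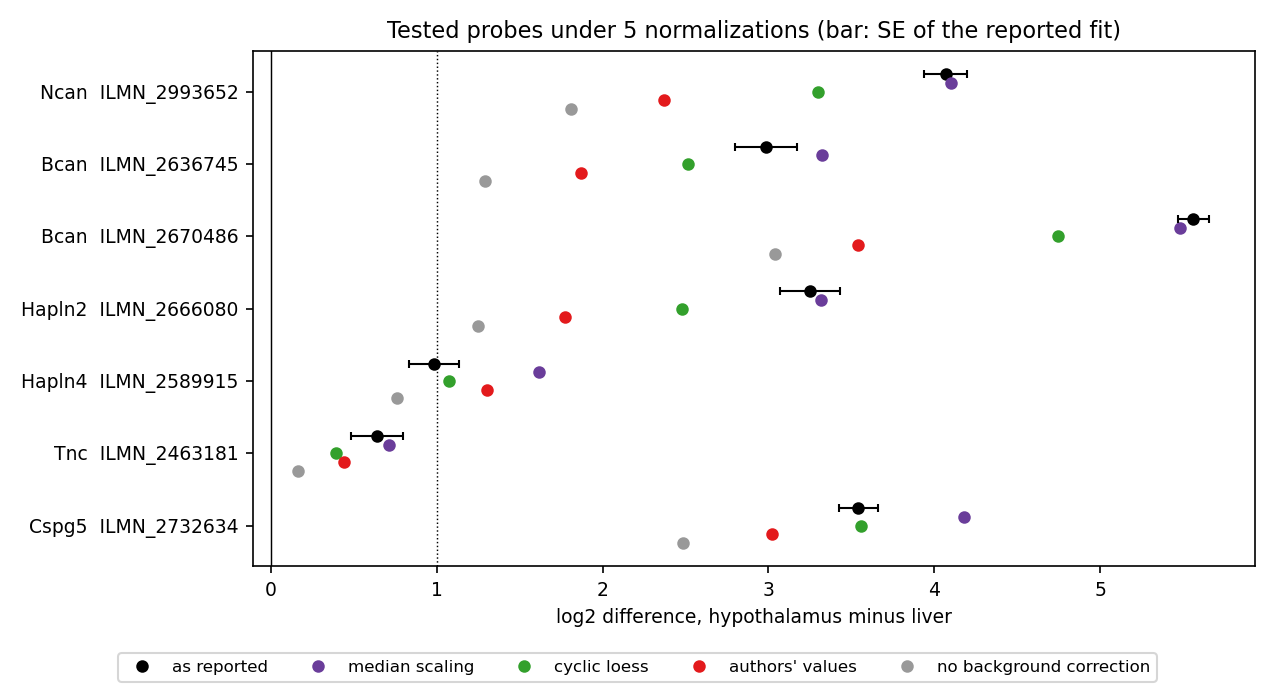
Log2 difference, hypothalamus minus liver, of the 7 tested member probes under 5 normalizations, with the SE of the reported fit as a bar and a dotted line at 2-fold. Every point lies above 0. The values without background correction (grey) are the smallest for each probe, and Hapln4 lies on either side of the 2-fold line.

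The genes whose centred profile over the 8 arrays was nearest to a member were sought among the other 9455 tested genes, by root mean square distance on the log2 scale. Bcan was nearest to Vstm2b (0.09), Asic1 (0.09) and Dipk1b (0.10). Ncan was nearest to Gng3 (0.10), Hapln2 to Bnip5 (0.12) and Fbxo27 (0.13), Cspg5 to Rbm11 (0.11) and Arl2 (0.11), Hapln4 to Mgst3 (0.08) and Tnc to Prim2 (0.08). Most of each profile is the gap between the organs, so these genes share its size and little more can be read from 4 arrays of each.

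The rest of the pathway was followed through 6 lists of 117 genes, of which 71 had a tested probe: the hypothalamus was called higher for 40 and the liver for 23. The 31 genes of these lists named with a fold were called with adjusted p of 0.0311 or less. Their folds depend on the normalization: in the authors' own normalized values the difference was more than 1.5-fold smaller for 23 of the 31, and without background correction for 20, so the folds and bounds hold for the reported normalization only. By gene, 43.1% of all tested genes were called higher in hypothalamus and 37.3% in liver. The genes of hyaluronan, the chain that lecticans bind, lay mostly on the liver side: 1 of 8 was higher in hypothalamus and 7 were higher in liver, 5 of them under median scaling and in the authors' own normalized values. Stab2, the scavenger receptor by which liver sinusoidal endothelium takes up hyaluronan, was at least 18.9-fold higher in liver, Hyal1, a lysosomal hyaluronidase, 8.12-fold, and Stab1 at least 7.21-fold. For Hyal1 the log2 difference was −3.02 as reported and −1.23 in the authors' own normalized values. Stab1 and Stab2 were each detected on 2 of 4 hypothalamus arrays. The synthase Has1 was at least 1.52-fold higher in hypothalamus, and probes of Has2 and Has3 were detected on 0 arrays.

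The enzymes of chondroitin and dermatan sulfate chains, among them the breakdown enzymes Arsb, Ids and Idua, were followed in 2 lists. As reported, only the sulfation list was called at shares near those of all tested genes, 43.1% for the hypothalamus and 37.3% for the liver. For chain synthesis, the hypothalamus was higher for 5 of 8 tested genes and the liver for 1, with a median log2 difference of 0.55. With median scaling and in the authors' own normalized values these counts were 7 and 0. The polymerizing factor Chpf was at least 2.16-fold, the chain-starting transferase Csgalnact1 at least 1.12-fold and the linker enzyme B3galt6 2.27-fold higher in hypothalamus. The xylosyltransferase Xylt2 was 1.63-fold higher in liver, a call lost with median scaling and in the authors' own normalized values (log2 difference 0.07 in each). For sulfation and its breakdown, the hypothalamus was higher for 5 of 10 and the liver for 3 (median 0.57). Among the 5, Ids and Arsb are breakdown enzymes, and the other tested probe of Arsb was called higher in liver. With median scaling and in the authors' own normalized values the counts were 8 and 2. The lysosomal sulfatase Ids was 14.0-fold, the sulfate donor synthase Papss1 7.83-fold and the sulfotransferase Chst12 at least 1.82-fold higher in hypothalamus. Papss2, the paralog of Papss1, was at least 5.28-fold higher in liver, with 3 of 4 hypothalamus arrays detecting it, and the sulfotransferase Chst15 was 2.69-fold higher in liver. Idua was 1.31-fold higher in liver, and turned to the hypothalamus side with median scaling (log2 difference 0.42, adjusted p = 0.0322) and in the authors' own normalized values (0.27, adjusted p = 0.0114).

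Of 8 proteases that cut lecticans and their inhibitors, 5 were called for the hypothalamus and 2 for the liver (median 1.65). The inhibitor Timp4 was at least 22.6-fold and its relative Timp2 22.7-fold higher in hypothalamus. Adamts4, an aggrecanase that cleaves brevican, was at least 6.90-fold higher there. Its normalized log2 level was 8.23, 8.23, 8.99 and 8.04 in hypothalamus, highest in replicate 3, and 4.33 to 4.55 in liver, where 0 arrays detected it. The log2 difference was 3.92, and 3.71 without replicate 3. The membrane protease Mmp14 was 2.99-fold higher in liver and Mmp2 1.68-fold, the call for Mmp2 being lost with median scaling and in the authors' own normalized values (log2 differences 0.07 and 0.06).

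Of 15 receptors and partners of lecticans and tenascins, 9 were called for the hypothalamus and 4 for the liver (median 2.01). Contactin-1 (Cntn1), a neuronal ligand of tenascin-R, was at least 57.5-fold, pleiotrophin (Ptn), a growth factor that binds chondroitin sulfate, at least 51.1-fold and the adhesion molecule Ncam1, which binds neurocan, at least 33.5-fold higher in hypothalamus. Egfr was 8.79-fold, the integrin subunit Itgb1 3.31-fold and the phosphatase receptor Ptprf 2.94-fold higher in liver. In the authors' own normalized values these 3 stayed called, with log2 differences of −2.12 for Egfr, −0.32 for Itgb1 and −0.40 for Ptprf. Of other brain matrix proteins and proteoglycans, 15 of 22 were called for the hypothalamus and 6 for the liver (median 1.36). The testican Spock3 was at least 32.8-fold, the glypican Gpc5 at least 29.2-fold and the matrix protein Crtac1 at least 16.5-fold higher in hypothalamus, while the small proteoglycans Dcn and Bgn, relatives of fibromodulin, were 5.73-fold and 5.20-fold and Smoc1 4.37-fold higher in liver.

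**Figure D4:**
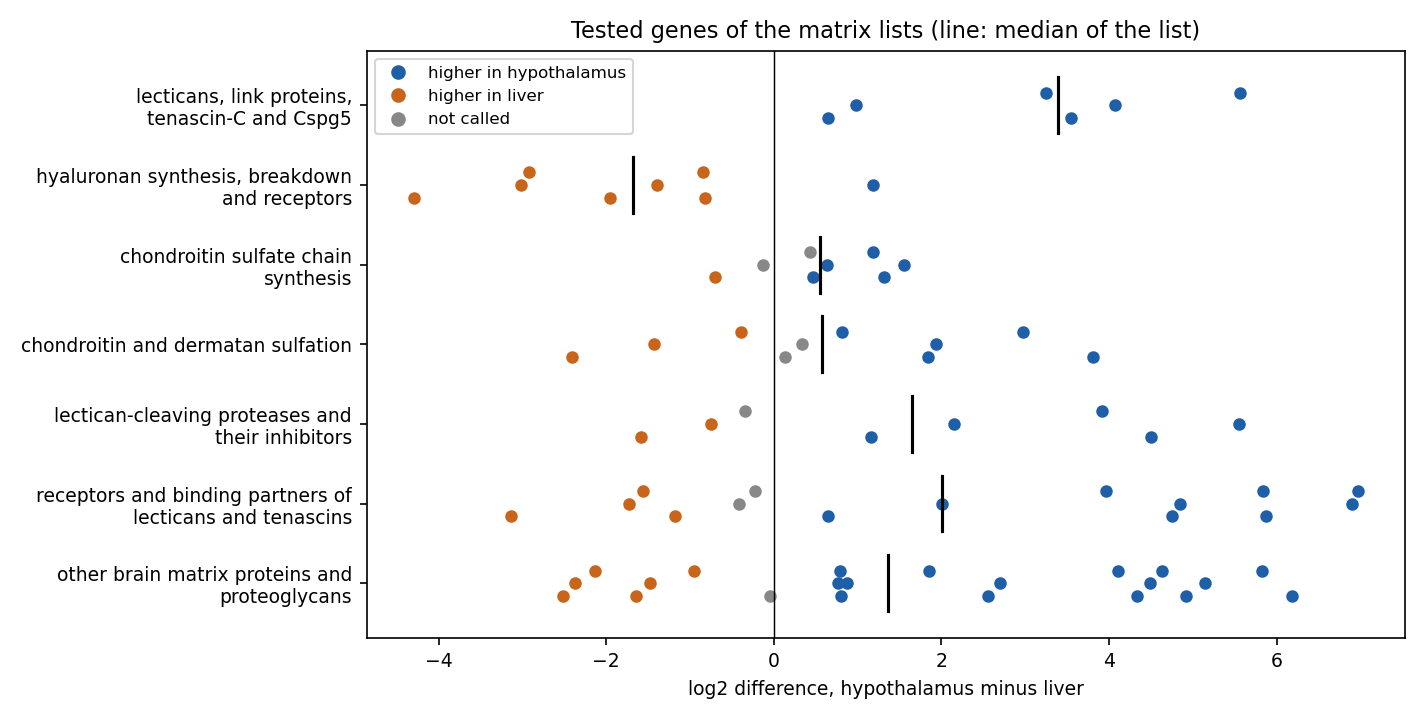
Log2 difference, hypothalamus minus liver, of each tested gene in the members' list (6 genes, top) and in the 6 other matrix lists, coloured by call, with the median of each list as a line. The median of the hyaluronan list is −1.68 and those of the other lists are above 0.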

How the data were processed

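Deposited values were signal intensity on a linear scale, not normalized between arrays, with a detection p-value per probe named in the column headers. Those p-values moved in steps of 1 in 798, as read from the values. The value table of the series gives intensity after normalization by the authors, with the method not given in the sources used here. Each column ranks probes as the deposited signals do (rank correlation 1), and the table served as an alternative. Hypothalamus replicate 4 was unchanged in it for all 25697 probes. Array medians in it were 169.1 to 169.3 for hypothalamus and 143.9 to 144.6 for liver, so the organs were not brought level. The submitters' processing notes name lumi 2.10.0 with R 2.15.0. Probes were named by the platform's annotation (1 symbol for 23978 probes, several for 0, none for 1719), updated through RefSeq gene IDs for 23962 probes. Columns of other samples numbered 0.

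Signals were normalized with limma 3.58.1 in R 4.3.3: normexp correction from the detection p-values with an offset of 16, quantile normalization of all 8 arrays and log2 (neqc). Probes detected (p-value under 0.05) on 4 or more arrays were tested with lmFit and eBayes on organ alone, in both directions, and given Benjamini-Hochberg adjustment over all 13498 at 0.05, and with treat for a difference beyond 2-fold. Member probes that failed the filter were fitted among all 25697 probes and are given as descriptions. A gene is its tested probe with the highest mean. All member probes are named, and from each other list the 3 called genes with the largest difference in each direction. The scripts were tested on simulated data. Alternatives were median scaling, cyclic loess, the authors' values, no background correction and no or a stricter filter. Others were a replicate block, the mean of a gene's tested probes, and leaving out each array. The members and lists were chosen with earlier results of these data known.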

Additional observations from a re-analysis of the deposited data

Results flagged for a closer look

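Of 36 sets of 4 arrays (18 member probes in each organ), 5 had 1 array far from the other 3 by Dixon's ratio of the gap to the range; chance alone gives about 1 in 20. Hapln4 probe ILMN_2589915 was 9.53 on the normalized log2 scale in hypothalamus replicate 3, against 9.21 in the nearest array. Bcan probe ILMN_2636745 was 8.03 in hypothalamus replicate 1, below 8.15 in the nearest, a gap that stands out because the other 3 arrays lay so close together. The other 3 were probes detected on 0 arrays: Bcan ILMN_2995619 at 4.44 and Acan ILMN_2645654 at 4.70, both in hypothalamus replicate 4, and Hapln1 ILMN_2753342 at 4.89 in liver replicate 1.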

How the results depend on the processing

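All 6 member genes tested stayed called higher in hypothalamus under median scaling, cyclic loess, the authors' values and no background correction. They did so too with no filter, the replicate block and each array left out. The stricter filter left Tnc untested and called the other 5. The mean of a gene's tested probes also left 6 called, but only Bcan had more than 1 tested probe, so it could change Bcan alone. The median log2 difference of the tested member genes was 3.40 as reported, 3.71 with median scaling, 2.89 with cyclic loess, 2.07 in the authors' values, 1.53 without background correction and 0.81 without a filter, where genes at background enter, and 3.36 to 3.47 with 1 array left out. Probes beyond 2-fold numbered 4 without background correction and 6 with median scaling or the authors' values, against 5. Same-numbered arrays of the 2 organs deviated together by correlations of 0.03 to 0.12, not all over 0.1, so they were not treated as pairs, although each hypothalamus array correlated best with the liver array of its own number. With the replicate block 10750 probes were called, against 10741, and the adjusted p of Hapln4 was 5.78e-04. That of Bcan ILMN_2670486 rose from 1.10e-11 to 2.19e-08 and that of Ncan from 8.24e-10 to 9.38e-08. That of Tnc ILMN_2463181 fell from 0.00379 to 0.00168. For probes at background the sign of small differences followed the scaling: the Tnr probe was at −0.38 with median scaling and 0.16 in the authors' values. Signal near background limits what can be said of Vcan, Acan, Hapln1, Tnr and most Tnc probes.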
